A study of Mus musculus with 4 samples.

Results

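Genes of lipid and cholesterol synthesis, of the kind that sebaceous glands express strongly, were compared between bulge basal cells and total epidermis of mouse back skin. The members were 43 genes named by symbol: 15 of fatty acid synthesis, elongation, desaturation and activation, 8 of lipid uptake, storage and wax ester synthesis, 12 of cholesterol synthesis, and 8 that control these pathways or mark sebocytes. Of these, 39 were measured, out of 12393 genes tested, and Acsl1, Soat1, Far2 and Insig1 were not analysed here. Each gene is represented by its probe set with the highest mean log2 signal over the 4 arrays.

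All mice carried a K14-GFP-actin transgene, in which the keratin 14 promoter of basal keratinocytes drives a GFP-actin fusion, and were 49 days old. The bulge group, 2 arrays, held living GFP-positive cells sorted for high α6 integrin and high CD34, which together select bulge basal cells of the hair follicle. The total group, 2 arrays, held all living GFP-positive cells and so contains bulge cells as well. No strain, sex or pooling of animals is given in the labels used here, and nothing says that the replicates came from separate mice, so the p-values rest on a spread between samples that may be technical.

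Skin makes lipid for several uses, which are sebum, the barrier lipids of the outer epidermis and the membranes of every cell. Sebocytes accumulate sebum, which includes triglycerides and wax esters, and release it by bursting. Cytosolic acetyl-CoA is built into palmitate, which elongases and desaturases modify before it is esterified for storage, while the mevalonate pathway turns the same precursor into squalene and cholesterol. SREBP transcription factors, encoded by Srebf1 and Srebf2, activate the genes of both routes when membrane sterol is low.

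Most lipid genes had close or overlapping signals in the 2 sorts. The median difference, bulge minus total on the log2 scale, was -0.14 over the 39 members and -0.02 over all 12393 genes, and 25 members differed by less than 0.5. The largest mean differences without overlap, among members above background in at least 1 group, were toward lower bulge signals. None of these passed over all genes. They were Mgst2, Acsbg1 and Scd1 among the genes tied to sebaceous lipid, and Cyp51 and Hsd17b7 in cholesterol synthesis. Elovl5 came next and was higher in bulge cells, by 0.95. Pparg, at -1.925, did not overlap either but was below background on all 4 arrays. In limma's moderated test with Benjamini-Hochberg adjustment, 0 members passed an adjusted p of 0.05, where 0 of all genes passed (0.0%), and 6 members were lower and 0 higher at an unadjusted p under 0.05, where 5.29% of all genes were lower and 5.18% higher. In limma with an intensity trend in the variance, 0 members passed against 134 of 12393 genes (1.08%), with 6 lower and 1 higher at an unadjusted p under 0.05, where 5.37% of all genes were lower and 5.33% higher. In limma without the trend but limited to the 7249 genes above background in at least 1 group, 1 of 30 members passed, Mgst2, against 222 of all genes (3.06%), and it was lower, as were 1.63% of the genes tested there.

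Both arrays of one sort lay beyond both arrays of the other for 16 of 39 members (41.0%), close to the 38.5% of all genes. Of these, 11 members were lower in the bulge group (28.2%, against 20.5% of all genes) and 5 were higher (12.8%, against 18.0%). An exact permutation test of 2 arrays against 2 cannot go below a two-sided p of 0.333. The signal that 1 array needs to stand above background was set at 150.0 (7.23 on the log2 scale), the 95th percentile of 67 olfactory, vomeronasal and taste receptor genes, since the file has no detection flags. Of the members, 24 were above it on all 4 arrays and 8 were below it on all 4. Signals of different probe sets are not comparable as levels of their genes.

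**Figure D1:**
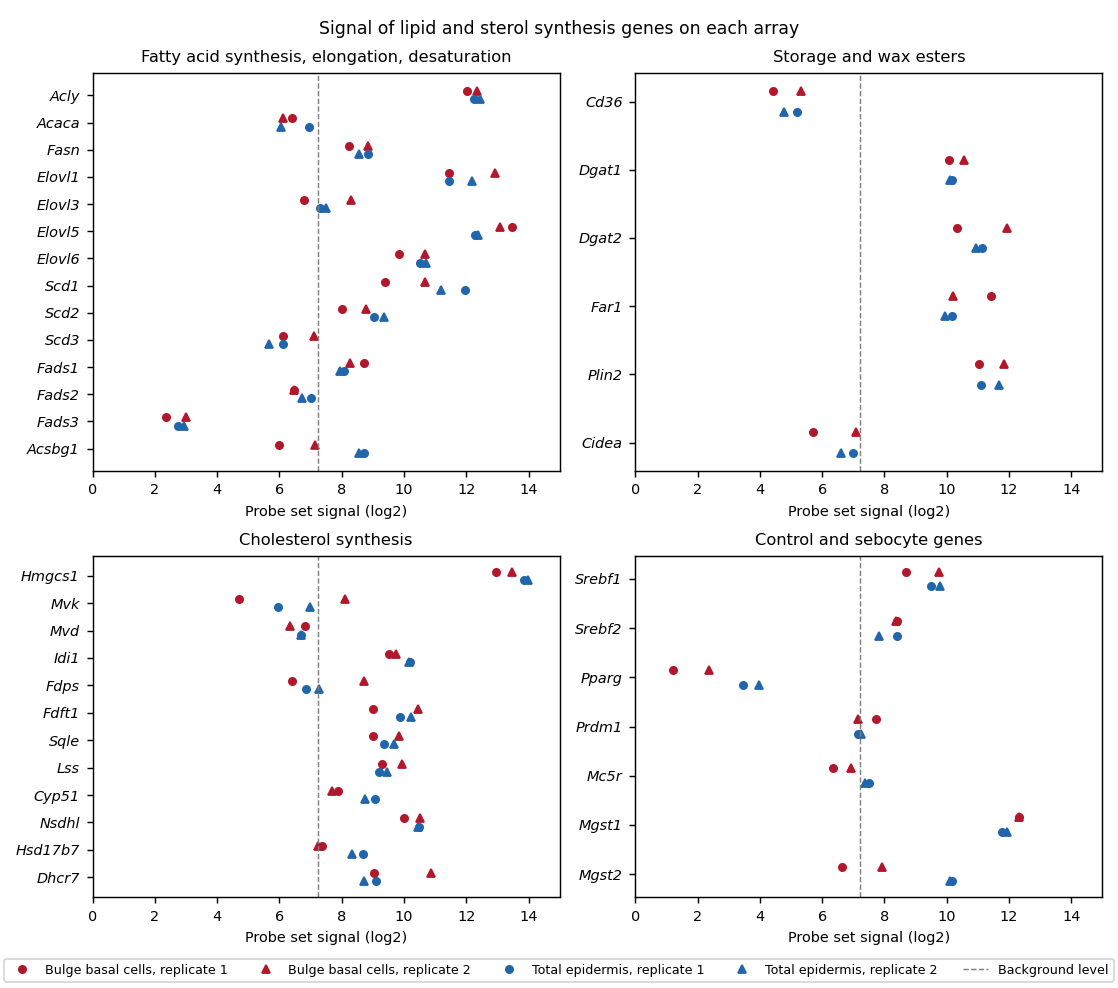
Log2 probe set signal of the 39 measured members on each array, by branch, with bulge arrays in red above total arrays in blue, circles for replicate 1 and triangles for replicate 2; the dashed line is the background level of 7.23. Mgst2, Acsbg1, Cyp51 and Hsd17b7 have both bulge arrays left of both total arrays, while Mvk, Fdps and Dhcr7 have bulge arrays far apart.

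The sebocyte label was checked first against its own markers. Pparg, the nuclear receptor that drives sebocyte differentiation, had signals of 2.33 and 5.19 on the bulge arrays and 11.1 and 15.8 on the total arrays, all far below background. Cidea, a lipid droplet protein gene, was below background on all 4 arrays as well, with 51.5 and 138 on the bulge arrays and 128 and 97.3 on the total arrays. Neither gene therefore gives a fold change.

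Mc5r, the melanocortin receptor that stimulates sebum secretion, had 80.8 and 122 on the bulge arrays, below background, and 184 and 168 on the total arrays, just above it. It was at least 1.17-fold lower in the bulge group (adjusted p = 0.618, limma). Elovl3, an elongase of very long chain fatty acids in sebaceous glands, had 111 and 316 on the bulge arrays and 158 and 180 on the total arrays, so the groups overlapped. Prdm1, which encodes the repressor Blimp1 of sebaceous and epidermal cells, had 211 and 144 on the bulge arrays and 143 and 153 on the total arrays and overlapped too. The signals of these 5 genes were thus low or below background in both sorts, while Scd1, Plin2 and Mgst1, which other cells express too, were well above it. The members are described here as lipid synthesis genes of these epidermal cells rather than as a measure of sebocytes. In sorted bulk RNA, fewer cells of a type and less RNA per cell cannot be told apart.

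Mgst2, a microsomal glutathione S-transferase gene, showed the largest difference of the 39. Its signals were 101 and 241 on the bulge arrays, against 1158 and 1090 on the total arrays. The total arrays were almost equal, and the higher bulge array was still far under both. The log2 difference was -2.85 ± 0.54 (SE, 95% interval -4.21 to -1.49), or at least 5.90-fold, since bulge replicate 1 lay below background. Its adjusted p was 0.129 in limma, 0.0647 with the intensity trend and 0.0401 with dim genes left out. The difference was -2.22 and -3.48 without bulge replicates 1 and 2, and -2.81 and -2.89 without total replicates 1 and 2. In fits with 1 array left out, the lone array is assumed to vary like the intact pair. Their p-values are therefore not given for single genes.

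Its paralogue Mgst1, abundant in sebaceous glands, went the other way. It had 5112 and 5097 on the bulge arrays, against 3471 and 3944 on the total arrays, a log2 difference of 0.46 ± 0.37 (SE) that did not pass (adjusted p = 0.817). The groups did not overlap, but a second Mgst1 probe set, below background on all 4 arrays, gave -0.67.

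In the fatty acid branch 0 members passed, with or without the trend. The enzymes that make palmitate overlapped between the sorts. Acly, which supplies cytosolic acetyl-CoA, had 4203 and 5240 on the bulge arrays and 4825 and 5534 on the total arrays, a difference of -0.14 (95% interval -1.11 to 0.83). Fasn, the fatty acid synthase gene, had 303 and 462 on the bulge arrays and 458 and 379 on the total arrays, a difference of -0.16 (95% interval -1.22 to 0.91). Acaca, the acetyl-CoA carboxylase gene, was below background throughout. With intervals this wide, a moderate difference was not detectable with 2 arrays per group.

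Stearoyl-CoA desaturases place the first double bond in saturated fatty acids, and neither Scd1 nor Scd2, whose signals were above background, passed. Scd1, the desaturase of sebocytes, had 674 and 1615 on the bulge arrays, against 3978 and 2356 on the total arrays. The log2 difference was -1.55 ± 0.58 (SE), 2.93-fold, with an adjusted p of 0.448 in limma and 0.326 with the trend. The difference was -2.18 without bulge replicate 2, -0.92 without bulge replicate 1, and -1.175 and -1.93 without total replicates 1 and 2. The second Scd1 probe set gave -0.78 with overlapping groups. Scd2, a close paralogue, had 260.0 and 437 on the bulge arrays, against 530.2 and 663 on the total arrays, a difference of -0.82 ± 0.44 (SE), and its adjusted p was 0.664 in limma. Its other probe sets, one below background throughout and one above it on 2 arrays, gave 0.67 and 0.02, and the mean over its probe sets was -0.04. Scd3 was below background on all 4 arrays. As the Scd genes are close paralogues, how the signal divides between them is uncertain.

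Acsbg1, an acyl-CoA synthetase gene whose product activates long chain fatty acids, had 64.2 and 142 on the bulge arrays, against 419 and 373 on the total arrays. Both bulge arrays were below background, and the gene was at least 2.63-fold lower there. The fitted log2 difference was -2.05 ± 0.51 (SE), with an adjusted p of 0.226 in limma and 0.147 with the trend. The difference was -2.62 without bulge replicate 2, -1.48 without bulge replicate 1, and -1.97 and -2.13 without total replicates 1 and 2.

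Among the genes that lengthen and desaturate polyunsaturated fatty acids, 0 passed. Elovl5, the elongase of polyunsaturated chains, had 11318 and 8679 on the bulge arrays, against 5004 and 5285 on the total arrays. The difference was 0.95 ± 0.38 (SE), 1.93-fold, with an adjusted p of 0.497, and its second probe set gave 1.22 without overlap. Fads1, the delta-5 desaturase, had 421 and 311 on the bulge arrays, against 273 and 246 on the total arrays, a difference of 0.48 ± 0.39 (SE), and its adjusted p was 0.823. Fads2, the delta-6 desaturase, and Fads3 were below background on all 4 arrays, with differences of -0.41 and -0.15. Elovl6, which extends palmitate to stearate, had 912 and 1647 on the bulge arrays and 1446 and 1663 on the total arrays, and Elovl1, which makes very long saturated chains, had 2820.0 and 7770.0 on the bulge arrays and 2808 and 4685 on the total arrays. Both overlapped between the sorts. The median over the 14 measured fatty acid genes was -0.15, with 3 higher (21.4%, against 18.0% of all genes) and 4 lower (28.6%, against 20.5%) without overlap. That median was 0.12 without bulge replicate 1 and -0.43 without bulge replicate 2.

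In the storage and wax branch 0 members passed, and 5 of 6 overlapped. Without overlap, 1 was higher (16.7%, against 18.0% of all genes) and 0 were lower (against 20.5%). Plin2, the lipid droplet coat protein gene, had 2101 and 3638 on the bulge arrays and 2197 and 3271 on the total arrays, a difference of 0.04 (95% interval -1.16 to 1.25). Dgat2, a triglyceride-forming acyltransferase gene, had 1283 and 3934 on the bulge arrays, on either side of the 2249 and 1983 on the total arrays. Dgat1, which catalyses the same step, differed by 0.16 ± 0.40 (SE). Far1, a fatty acyl-CoA reductase that makes the alcohols of wax esters and ether lipids, was the only member of the 6 without overlap. It had 2739 and 1184 on the bulge arrays, against 1153 and 997 on the total arrays, a difference of 0.75 ± 0.53 (SE) that did not pass (adjusted p = 0.772). All 5 Far1 probe sets gave positive differences, between 0.14 and 0.76, but all except the chosen one overlapped. Those that gave 0.14 and 0.37 were below background on all 4 arrays. Without bulge replicate 1 the difference of the chosen probe set was 0.14. Cd36, a fatty acid uptake receptor gene, was below background on all 4 arrays. The median over the 6 measured genes was 0.07, but it was 0.37 without bulge replicate 1 and -0.46 without bulge replicate 2.

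**Figure D2:**
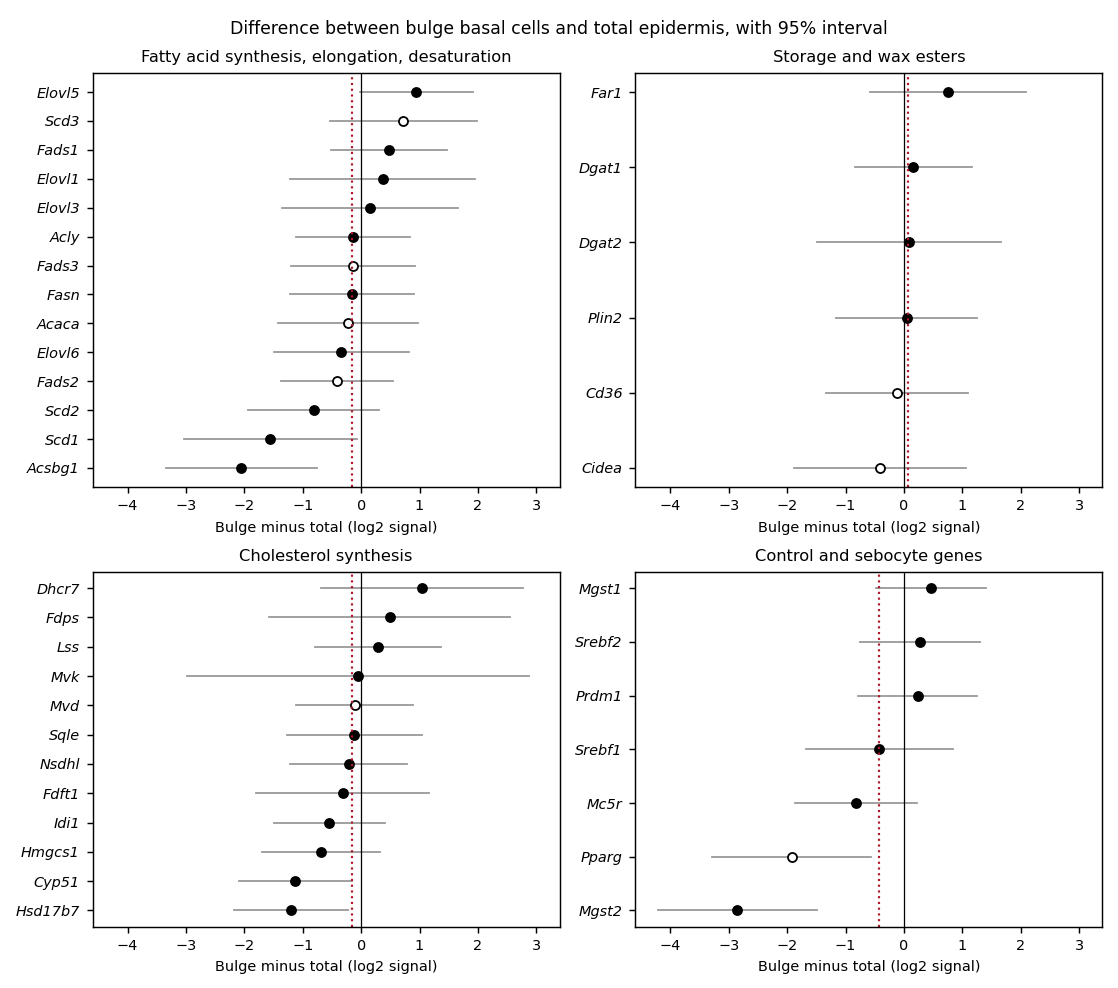
Difference between bulge basal cells and total epidermis for each member on the log2 scale, with the 95% interval of the limma fit as a grey line; open points are genes below background on all 4 arrays, and the dotted line is the branch median. Most intervals include 0, and Mgst2 (-2.85), Acsbg1 (-2.05), Hsd17b7 (-1.20), Cyp51 (-1.13) and Scd1 (-1.55) lie wholly below it, as does Pparg, which is below background.

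In cholesterol synthesis 0 of 12 members passed, with or without the trend. Without overlap of the arrays, 4 were lower in bulge cells (33.3%, against 20.5% of all genes) and 0 were higher (against 18.0%). The median was -0.17, but it was 0.17 without bulge replicate 1 and -0.67 without bulge replicate 2. Hmgcs1, whose product condenses acetyl-CoA units into HMG-CoA at the start of the pathway, had 7992 and 11370.0 on the bulge arrays, against 14665 and 16172 on the total arrays. The difference was -0.69 ± 0.40 (SE), 1.62-fold, with an adjusted p of 0.692. All 4 of its probe sets gave lower bulge signals, with differences between -0.69 and -1.37, and 3 of them did not overlap.

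Idi1, the isopentenyl diphosphate isomerase gene, had 731 and 870 on the bulge arrays, against 1176 and 1154 on the total arrays, a difference of -0.55 ± 0.37 (SE), and its adjusted p was 0.763 in limma. Its second probe set gave -0.12 with overlap. Cyp51, the lanosterol demethylase gene, had 237 and 206 on the bulge arrays, against 533 and 434 on the total arrays. The difference was -1.13 ± 0.38 (SE), 2.18-fold, with an adjusted p of 0.379 in limma and 0.273 with the trend. Its other probe sets, below background on all 4 arrays, gave -0.43 and -0.14, and the mean over its probe sets was -0.56. Hsd17b7, a sterol 3-ketoreductase gene of cholesterol synthesis, had 167 and 151 on the bulge arrays, just above background, against 413 and 323 on the total arrays. The difference was -1.20 ± 0.38 (SE), 2.30-fold, with an adjusted p of 0.341 in limma and 0.260 with the trend. Its second probe set, above background on 3 arrays, gave -0.76 with overlap. For the chosen probe sets of Cyp51 and Hsd17b7 the gap between the sorts was wider than the gap between the arrays of either sort. The same held for Idi1, Mgst1, Mgst2, Acsbg1 and Elovl5, and the share of all genes was not counted.

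The promoter windows of these 4 genes, the cholesterol genes without overlap, are shown, each from 250 bases before to 50 bases after the start of the gene, 5′ to 3′ on the strand of the gene, from RefSeq on GRCm38.p6. They are Hmgcs1 at chr13:119690101-119690400 on the plus strand, Idi1 at chr13:8885356-8885655 on the plus strand, Cyp51 at chr5:4104648-4104947 on the minus strand and Hsd17b7 at chr1:169969156-169969455 on the minus strand. Capitals mark matches on either strand to TCACNCCAC, a form of the sterol regulatory element bound by SREBP, to CCAAT, the box bound by NF-Y, and to CACGTG, an E-box. No matches overlapped.
Hmgcs1: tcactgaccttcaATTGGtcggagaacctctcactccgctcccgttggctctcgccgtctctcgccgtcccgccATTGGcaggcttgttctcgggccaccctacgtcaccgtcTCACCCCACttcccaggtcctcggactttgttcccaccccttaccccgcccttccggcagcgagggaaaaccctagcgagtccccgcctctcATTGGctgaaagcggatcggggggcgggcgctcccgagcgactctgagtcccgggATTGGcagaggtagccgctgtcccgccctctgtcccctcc
Idi1: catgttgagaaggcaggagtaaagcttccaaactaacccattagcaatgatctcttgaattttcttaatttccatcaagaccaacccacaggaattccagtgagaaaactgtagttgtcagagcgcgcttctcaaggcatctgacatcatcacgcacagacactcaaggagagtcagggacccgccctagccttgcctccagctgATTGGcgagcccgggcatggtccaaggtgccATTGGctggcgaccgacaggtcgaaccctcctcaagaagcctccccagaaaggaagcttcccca
Cyp51: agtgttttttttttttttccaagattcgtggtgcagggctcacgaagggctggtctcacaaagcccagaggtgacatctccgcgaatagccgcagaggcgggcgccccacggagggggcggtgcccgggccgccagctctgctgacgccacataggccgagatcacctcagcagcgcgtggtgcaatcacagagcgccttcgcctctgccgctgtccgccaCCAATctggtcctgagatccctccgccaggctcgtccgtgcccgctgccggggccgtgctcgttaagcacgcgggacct
Hsd17b7: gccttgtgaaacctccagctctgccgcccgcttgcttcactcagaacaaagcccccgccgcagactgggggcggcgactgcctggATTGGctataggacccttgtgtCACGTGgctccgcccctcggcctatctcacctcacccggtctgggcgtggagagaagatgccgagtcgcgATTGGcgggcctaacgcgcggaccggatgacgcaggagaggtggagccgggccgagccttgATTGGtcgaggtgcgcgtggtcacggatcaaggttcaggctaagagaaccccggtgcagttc
The form TCACNCCAC of the sterol regulatory element was found in the Hmgcs1 window alone, as TCACCCCAC starting 137 bases before the start. It occurs in 1.24% of 32851 windows of this length. No other form was searched for, so windows without this match may hold the element in another form. CCAAT or its reverse ATTGG was found in all 4 windows, with 4 matches in Hmgcs1, 2 in Idi1, 1 in Cyp51 and 3 in Hsd17b7. It was present in 25 of the 36 windows of members, against 37.4% of all windows. Counted by gene, with any of its windows, it was present in all 9 cholesterol genes and in 23 of the 28 members that had a window, against 41.1% of all genes with a window. CACGTG was found in Hsd17b7 of these 4 and in 7.15% of all windows. A match is a description of the sequence and not of binding, and the 5 cholesterol genes with a window that overlapped between the sorts carried CCAAT as well.

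The other cholesterol genes overlapped by their chosen probe sets. Sqle, the squalene epoxidase gene, had 511 and 909 on the bulge arrays and 661 and 826 on the total arrays, Lss, the lanosterol synthase gene, had 629 and 984 on the bulge arrays and 588 and 705 on the total arrays, and Nsdhl, a sterol decarboxylase gene, had 1025 and 1446 on the bulge arrays and 1432 and 1390.0 on the total arrays. Fdft1, the squalene synthase gene, had 518 and 1395 on the bulge arrays and 931 and 1204 on the total arrays. The other Lss probe sets, above background on at most 1 array, gave 0.57 and 0.74 without overlap. Fdps had 84.0 and 418 on the bulge arrays and 115 and 155 on the total arrays. Its second probe set, below background on all 4 arrays, gave -2.74 without overlap. Mvd, which makes isopentenyl diphosphate, was below background throughout, and Mvk, the mevalonate kinase gene, was above it only on bulge replicate 2.

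Dhcr7, the last enzyme of the pathway, had 529 and 1878 on the bulge arrays, against 554 and 421 on the total arrays; bulge replicate 1 lay between the total arrays and bulge replicate 2 far above them. Its difference of 1.05 ± 0.68 (SE) had an adjusted p of 0.747 in limma. The difference was 1.96 without bulge replicate 1 and 0.13 without bulge replicate 2, so the gene was high on 1 bulge array alone.

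The transcription factors over both routes overlapped. Srebf1, which favours fatty acid genes, had 417 and 856 on the bulge arrays and 720 and 890.1 on the total arrays, a difference of -0.42 (95% interval -1.68 to 0.83). Srebf2, which favours cholesterol genes, had 341 and 329 on the bulge arrays and 335 and 229 on the total arrays, a difference of 0.27 (95% interval -0.75 to 1.30), and its second probe set gave -0.20.

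The bulge arrays differed from each other more than the total arrays did, over the members and over all genes: across the 7249 genes above background, the SD of the replicate difference was 0.917 in the bulge group and 0.553 in the total group. Bulge replicate 2 was above bulge replicate 1 for 28 of 39 members (71.8%), against 47.6% of all genes, with a median excess of 0.65 on the log2 scale against -0.05 over all genes. Between the total arrays, replicate 2 was above replicate 1 for 19 of 39 members (48.7%), against 40.4% of all genes, with a median of -0.03. The excess on bulge replicate 2 had a median of 0.70 for fatty acid genes, 0.85 for storage genes and 0.58 for cholesterol genes. It was 1.83 for Dhcr7, 1.62 for Dgat2, 1.51 for Elovl3 and 1.46 for Elovl1, while Far1 was lower on that array by a log2 value of -1.21. Of 9 measured markers of suprabasal keratinocytes, 6 were above replicate 1 on bulge replicate 2 (66.7%, against 47.6% of all genes). Between the total arrays, 6 of the 9 were also above replicate 1 on replicate 2 (66.7%, against 40.4%). For other cell marker lists the bulge share ranged from 22.2% (fibroblasts) to 80.0% (myeloid and Langerhans cells). The summed signal of the 9 suprabasal markers was 22797 and 62800 on bulge replicates 1 and 2, against 42774 and 62975 on total replicates 1 and 2. Krt10, Lor and Krtdap made up most of it. Between the sorts, 3 of the 9 were lower (33.3%, against 20.5% of all genes) and 1 higher (11.1%, against 18.0%) without overlap. Their median difference was -0.47. Lor and Flg differed by 0.69 and 0.22 with overlap, and Dsc1, below background on all 4 arrays, by 0.74. The suprabasal keratin gene Krt1 fell to 699 and 1118 on the bulge arrays, against 8379 and 9221 on the total arrays (adjusted p = 0.0297 with the trend and 0.0824 without it, limma). Notch3, a Notch receptor gene, fell to 280.3 and 275 on the bulge arrays, against 2530.0 and 1548 on the total arrays (adjusted p = 0.0381 with the trend and 0.101 without it, limma). The part of these cells in the result was not tested.

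**Figure D3:**
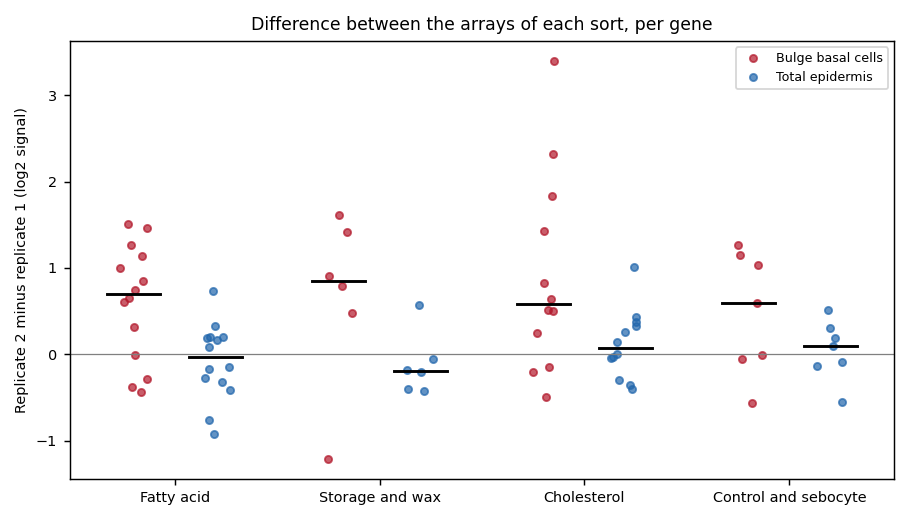
Replicate 2 minus replicate 1 on the log2 scale for each member, within bulge basal cells (red, left of each pair) and within total epidermis (blue, right of each pair), by branch; black bars are medians. The bulge medians lie between 0.58 and 0.85 and the total medians between -0.20 and 0.09.

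Other lipid genes, outside the members, gave a background for these branches. Of 20 measured genes of fatty acid synthesis and activation, 0 passed in limma with or without the trend, the median was -0.48, and 10 of these 20 were lower (against 20.5% of all genes) and 2 higher (against 18.0%) without overlap. Hacd1, a dehydratase of chain elongation, had 1974 and 886 on the bulge arrays, against 320.3 and 234 on the total arrays, a difference of 2.27 with an adjusted p of 0.196. Acsl5, an acyl-CoA synthetase gene, had 1082 and 1268 on the bulge arrays, against 2384 and 2788 on the total arrays, a difference of -1.14 (adjusted p = 0.365, limma). Of 22 storage and lipolysis genes 0 passed, and Lpl, the lipoprotein lipase gene, had 70.3 and 419 on the bulge arrays, against 1498 and 1335 on the total arrays (at least 5.64-fold lower, adjusted p = 0.288, limma).

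Of 16 further sterol genes 0 passed, with 3 higher (18.8%, against 18.0% of all genes) and 2 lower (12.5%, against 20.5%) without overlap and a median of -0.27. Abcg1, a sterol efflux transporter gene, had 161 and 170 on the bulge arrays, against 443 and 533 on the total arrays, a difference of -1.56 with an adjusted p of 0.211 in limma. Scap, the sterol-sensing escort of SREBP, differed by -0.91, and Npc2, which moves cholesterol out of lysosomes, by 0.82. Of 17 genes of fatty acid oxidation, 1 passed with the trend: Ppara, the nuclear receptor of fatty acid catabolism, fell to 9.80 and 12.2 on the bulge arrays, against 160.2 and 159 on the total arrays (adjusted p = 0.0376 with the trend and 0.0729 without it, limma). The total signals were barely above background, so the fall is bounded at 1.06-fold or more. Of 13 ceramide and barrier lipid genes 0 passed, the median was 0.47, and 6 were higher (46.2%, against 18.0% of all genes) and 0 lower (against 20.5%) without overlap, among them Degs1, the dihydroceramide desaturase gene, with 10258 and 10089 on the bulge arrays against 3912 and 4561 on the total arrays (1.27, adjusted p = 0.297, limma).

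**Figure D4:**
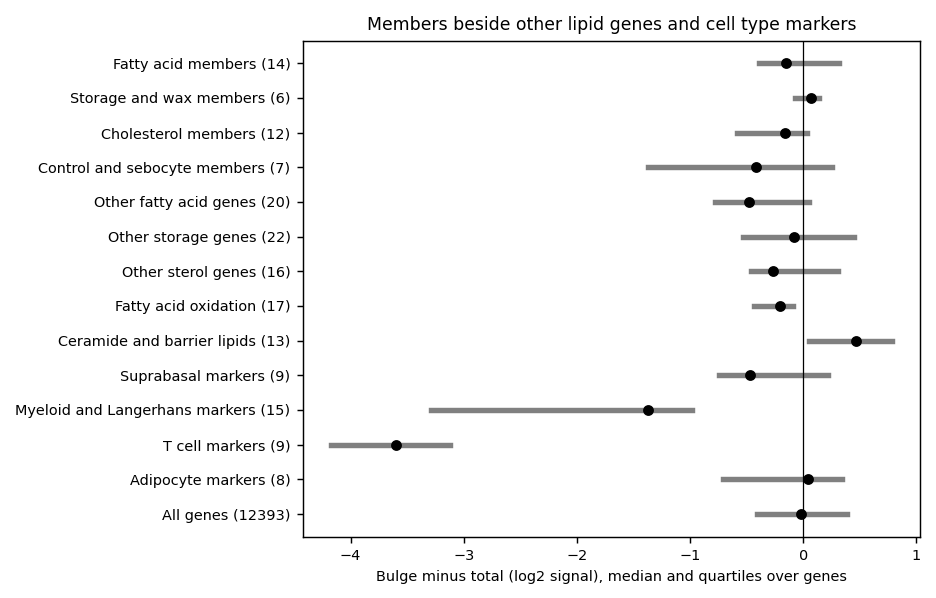
Median (point) and quartiles (bar) over genes of the difference between bulge basal cells and total epidermis on the log2 scale, for the member branches, other lipid gene lists, cell type markers and all genes, with the number of genes measured in brackets. The medians of the member branches lie between -0.42 and 0.07, against -0.02 for all genes, whose quartiles are -0.41 and 0.38. T cell markers have a median of -3.60.

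Markers of other cells were measured beside the lipid genes. Leukocyte genes were lower on the bulge arrays: the summed signal of 15 myeloid and Langerhans cell markers was 2051 and 2601 on the bulge arrays, against 13946 and 14987 on the total arrays, with 12 of 15 lower without overlap (80.0%, against 20.5% of all genes), and that of 9 T cell markers was 312 and 495 on the bulge arrays, against 2258 and 3704 on the total arrays, with 9 of 9 lower. Adipocyte markers gave sums of 489 and 726 on the bulge arrays and 1839 and 1649 on the total arrays, with Lpl the only 1 of 8 above background by its group mean and Adipoq and Lep below background on all 4 arrays. Of 11 measured sebocyte and sebaceous duct genes outside the members, 3 were higher (27.3%, against 18.0% of all genes) and 4 lower (36.4%, against 20.5%) without overlap, and the median was -0.78. Those higher were Apoe by 0.43, Atp6v1c2 by 0.999 and Ldhb by 0.81 on the log2 scale, with adjusted p of 0.859, 0.694 and 0.753 in limma. Krt79, a keratin gene of sebaceous ducts and the infundibulum, had 1392 and 2951 on the bulge arrays, against 20471 and 24226 on the total arrays (adjusted p = 0.0426 with the trend and 0.095 without it, limma). Gata6, a duct transcription factor gene, had 162 and 88.3 on the bulge arrays, against 721 and 542 on the total arrays (adjusted p = 0.0792 with the trend and 0.146 without it, limma). The part of such cells in the lower Mgst2, Acsbg1 and Scd1 signals was not tested. The sort itself was checked with Cd34, at 15697 and 14034 on the bulge arrays against 844 and 1144 on the total arrays, which chose the cells and is no result.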

How the data were processed

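RNA of sorted cells was amplified from an oligo-dT T7 primer, starting from 200 ng, and its biotinylated cRNA was measured on Affymetrix arrays, per the labels' protocols. The values deposited are 1 linear intensity for each probe set and array. RMA, affy 1.36, R 2.15.1 and GCOS are listed, per the submitters' processing notes, without their roles. Every array has a mean of 500.0 after trimming 2% at each end, a feature of scaling to 1 target and not of RMA, and which tool made the values is not given in the sources used here. Such scaling hides any change in total RNA per cell.

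Log2 of the deposited intensity was taken. Of 22690 probe sets, 20380 had 1 symbol in the platform annotation, of which 20351 were matched by Entrez ID for current symbols. These give 12393 genes, each by its probe set with the highest mean log2 signal. Groups came from the sample titles, the cell type label being shared by all 4 arrays. limma 3.58.1 in R 4.3.3 (lmFit, eBayes, group alone, two-sided, Benjamini-Hochberg over all genes, threshold 0.05) was the principal test, and the same with an intensity trend was given beside it. Fits were run on simulated data to check that known differences were recovered. The simulated arrays had independent noise of the same spread in both groups, unlike these data, so error rates here were not tested. Where a gene was below background on an array of the dimmer group, a fold is given as at least the ratio of the brighter mean to the dimmer mean with each dim array raised to background. Values per array are given for members with an absolute difference of at least 1 and no overlap, the 2 highest signals of each branch and sebocyte markers. Dhcr7, other members and single markers of other cells were added after their values were seen. The members and lists were chosen with earlier results of these data known. Scaling, variance models, filters, probe set rules, an offset of 32, a replicate block and each array left out were tried as alternatives.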

Additional observations from a re-analysis of the deposited data

How the results depend on the processing

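Of 16 alternatives to the limma fit, 14 also called 0 members. Leaving out genes below background in both groups called 1 of 30 members (Mgst2, lower), against 222 of the 7249 genes tested there (3.06%). With the replicate number as a replicate block and an intensity trend, 3 of 39 members were called, against 917 of 12393 genes. All 3 were lower (Mgst2, Acsbg1 and Scd1), and the replicate block without the trend called 0. The replicate numbers are shared labels alone. Over genes above background, replicate differences of the 2 sorts correlated at r = 0.58 across genes, a hint from the data and not from the design. The trended fit called between 0 and 3 members when 1 array was left out. Members without overlap numbered 16 of 39 (41.0%, against 38.5% of all genes). Among genes above background in at least 1 group, they were 13 of 30 members (43.3%, against 42.8% of all such genes). They were 10 of the 24 members left when only genes above background on all arrays were kept. The share of all genes under that filter was not counted, so the 10 cannot be set against it. With 1 array left out they were between 20 and 35. For any gene, 1 array against 2 overlaps less easily than 2 against 2. That rise is therefore at least in part built into the design, and no share of all genes is given beside it. With 1 array left out, branch medians ranged from -0.43 to 0.12 for fatty acid genes, -0.46 to 0.37 for storage genes, -0.67 to 0.17 for cholesterol genes and -0.94 to -0.046 for control and sebocyte genes, with the lowest value without bulge replicate 2 and the highest without bulge replicate 1 in each. The last median was -0.42 with all arrays, -0.094 over genes above background in 1 group or more and 0.27 over those above it on every array, since these filters remove members. Across all genes the count called was 0 in limma, 134 with the trend, 86 with a robust trend, 222 and 61 with the filters, 37 with an offset of 32 and 917 with block and trend; with the trend it was 50 after quantile normalization, 73 with the offset, 388 and 350 without bulge replicates 1 and 2, and 0 without either total array. Of 600 single values under these alternatives, 36 changed sign, in 23 members, and in none of these did the interval with all arrays or under the alternative leave out 0, while 16 members kept their sign throughout.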
